A study of Mus musculus with 2 samples.

Results

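The genes described here are the cholinergic genes and acetylcholine receptors of a mouse brain section measured by spatial transcriptomics: Chat, Slc18a3, Slc5a7, Ache, Chrna4, Chrna7, Chrnb2, Chrm1, Chrm2 and Chrm3. They were taken by symbol from the feature table, 10 of the 19465 genes in the probe panel, and all 10 had at least 1 UMI. The study compared male mice aged 6 months of the G2-3 line, which carries A53T alpha-synuclein, with wild-type males of the same age, with 1 brain sample per genotype. Methanol-fixed sections were hybridised with gene probes, and the probe products were captured on a Visium slide in a CytAssist instrument. The labels give neither the promoter that drives the transgene nor the number of animals.

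The deposited count matrices of the G2-3 and wild-type samples were the same byte for byte (0 of 8667725 nonzero entries differed, and all 2722 barcodes were shared), so they were counted as 1 library and no genotype is attached to any value. Of the barcodes, 2485 spots marked as tissue in the wild-type position list and holding at least 500 UMIs (unique molecular identifiers, 1 per captured probe product) were used. They held 20997947 UMIs, with a median of 6686 and a range of 1183 to 80174 per spot. A spot is a small area that can hold several cells, so spots are not replicates and no p-value is given. Levels are UMIs of a gene per 1000000 UMIs of all genes (CPM), summed over the spots of a region. All intervals are 95% exact intervals that cover counting error only: Poisson for a level, Clopper-Pearson for a share or a ratio.

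Cholinergic neurons make acetylcholine with choline acetyltransferase (Chat), load it into vesicles with the vesicular transporter Slc18a3, and take choline back up with Slc5a7, so these transcripts mark the cells that release the transmitter. Acetylcholinesterase (Ache) splits the transmitter outside the cell and is also made by many neurons that do not release it. Released acetylcholine acts on nicotinic receptors, ion channels built of subunits such as Chrna4 with Chrnb2 or Chrna7 alone, and on muscarinic receptors (Chrm1, Chrm2, Chrm3), which couple to G proteins. In the brain the cell bodies that release acetylcholine lie in the basal forebrain, striatum, tegmentum and motor nuclei of the brainstem, while receptors are found far more widely.

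Clustering of the spots, from which the 10 genes and all other cholinergic lists were left out, gave 15 regions, each called by its 2 leading genes. The name Six3/Slc18a3 itself holds a gene of the set, so its high Slc18a3 is no result. Marker lists placed 6 regions with 1191 spots in a brainstem division (Six3/Slc18a3, Tph2/Slc18a2, Irx2/Cdh23, Cartpt/Baiap3, Mgp/Igf2 and Ttr/Myoc) and 5 regions with 681 spots in a telencephalon division (Clec18a/Igfn1, Myl4/Col6a1, Dkk3/Tshz2, Ccn2/Cplx3 and C1ql2/Pcdh20). The other 4 regions, with 613 spots, had no marker of either list (Gpr161/Cpne7, Penk/Reln, Ddn/Slc1a3 and Gfap/Myoc). Mgp/Igf2 held all 7 meninges markers and had only 1 brainstem marker. The median depth was 5357 UMIs per spot in the brainstem division and 10556 in the telencephalon division.

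The 3 genes that mark transmitter release are shown by their promoters, because their UMIs lay in the same few spots. Each is the stretch from 250 bases before to 50 bases after the RefSeq gene start on GRCm38.p6, the assembly of the mm10 build, printed 5′ to 3′ on the gene's strand. Slc18a3 (chr14:32462437-32464850) lies wholly inside Chat (chr14:32408203-32465909), both on the minus strand, with 1059 bases between their starts. The Chat window is chr14:32465860-32466159, the Slc18a3 window chr14:32464801-32465100, and the Slc5a7 window chr17:54298985-54299284, all on the minus strand. Capitals mark matches to the GC box letters GGGCGG and to the letters TGACG, each read on both strands (CCGCCC and CGTCA on the other strand).
Chat: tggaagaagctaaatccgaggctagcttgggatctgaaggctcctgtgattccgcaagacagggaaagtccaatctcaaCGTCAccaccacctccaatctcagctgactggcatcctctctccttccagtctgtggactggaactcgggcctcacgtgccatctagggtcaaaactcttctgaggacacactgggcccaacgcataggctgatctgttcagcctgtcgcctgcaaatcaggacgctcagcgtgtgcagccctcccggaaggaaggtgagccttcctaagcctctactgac
Slc18a3: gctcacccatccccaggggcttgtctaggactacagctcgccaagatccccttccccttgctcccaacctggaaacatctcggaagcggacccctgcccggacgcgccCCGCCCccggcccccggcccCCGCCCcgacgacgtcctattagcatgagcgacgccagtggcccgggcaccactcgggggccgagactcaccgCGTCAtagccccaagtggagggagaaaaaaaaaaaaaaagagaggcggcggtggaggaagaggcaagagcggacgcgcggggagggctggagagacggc
Slc5a7: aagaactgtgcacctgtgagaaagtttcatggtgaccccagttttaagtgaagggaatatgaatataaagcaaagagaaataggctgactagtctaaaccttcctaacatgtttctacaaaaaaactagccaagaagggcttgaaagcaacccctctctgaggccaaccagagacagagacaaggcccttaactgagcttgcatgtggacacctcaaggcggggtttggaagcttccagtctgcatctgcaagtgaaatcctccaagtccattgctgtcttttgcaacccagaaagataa

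The Slc18a3 window held 2 matches to the GC box and 1 to TGACG, and 67.0% of its bases were G or C. The Chat window held no GC box and 1 match to TGACG, with 55.7% G or C. The Slc5a7 window held neither, and was the poorest of the 3 in G and C, at 44.7%. Of 32851 promoters of the same length, 35.7% held the GC box and 20.8% held TGACG, so both sets of letters are common. The letters TATAAA, found in 13.6% of promoters, occurred once in the Slc5a7 window and in neither of the others. A match describes the letters only. Probe positions were not used here, so UMIs of any transcript sequence that the nested genes share cannot be told apart.

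Transcripts of the release genes were rare and gathered in a single patch. Slc18a3 had 123 UMIs in 30 spots, Chat 18 UMIs in 14 spots and Slc5a7 13 UMIs in 12 spots. The spots with a UMI of Chat or Slc18a3, called source spots below, numbered 34, or 1.37% of all spots. Of these, 22 touched each other in a patch of array rows 59 to 63 and columns 53 to 65, next to the edge of the tissue, which ended at row 65. The other 12 source spots touched no other source spot and held at most 3 UMIs of both genes together. The patch held 111 of the 123 Slc18a3 UMIs (90.2%), 16 of the 18 Chat UMIs (88.9%) and 9 of the 13 Slc5a7 UMIs (69.2%). In the patch, 17 spots belonged to the Six3/Slc18a3 region and 5 to the Tph2/Slc18a2 region.

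**Figure D1:**
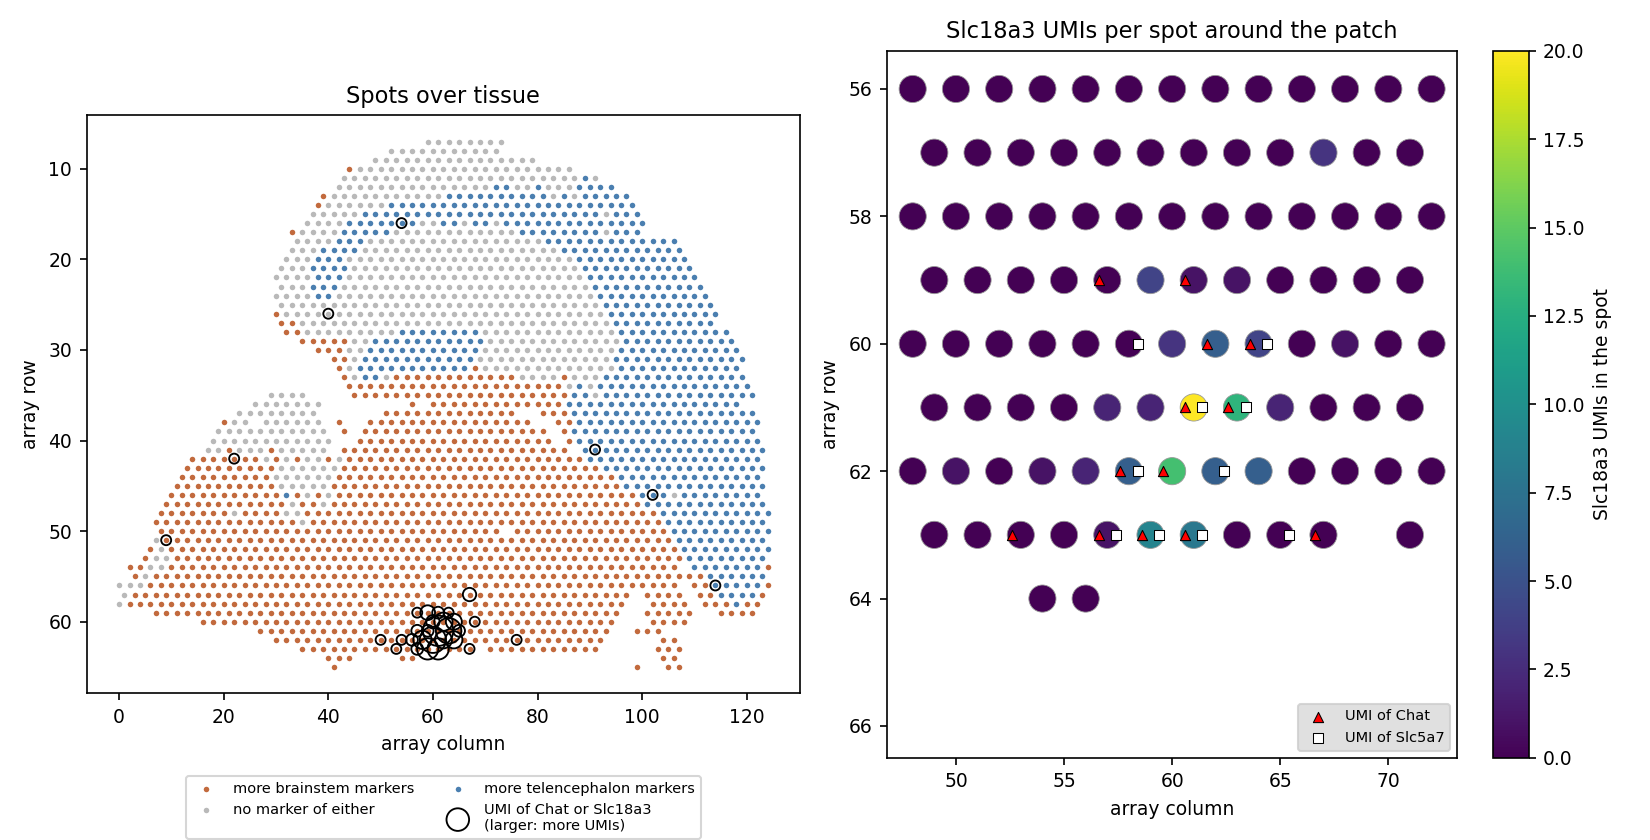
Left, the 2485 spots over tissue by array column and row, coloured by division, with circles around the 34 spots that held a UMI of Chat or Slc18a3 (larger circles for more UMIs). Right, the area around the patch, with Slc18a3 UMIs per spot as colour (0 to 20), triangles for spots with a Chat UMI and squares for spots with a Slc5a7 UMI; the marks crowd in rows 60 to 63.

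Within the patch the signal was steep. The 3 spots with most Slc18a3 held 20, 14 and 13 UMIs of it, each with 2 UMIs of Chat, and the first touched both of the others. The next spots held 9, 8, 6, 6, 6, 6, 4 and 4 Slc18a3 UMIs. These 11 spots with at least 4 UMIs together held 96 Slc18a3 UMIs, 78.0% of the total, with 12 Chat and 8 Slc5a7 UMIs, and all 11 were in the Six3/Slc18a3 region. By contrast 15 of the 34 source spots held a single UMI of the pair. Chat and Slc18a3 were found together in 10 spots, so most spots with Chat (10 of 14) also had Slc18a3.

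Slc5a7, the choline transporter, had no part in choosing the source spots. It had 9 UMIs in the 34 source spots and 4 UMIs in the 2451 other spots, or 35.5 CPM against 0.193 CPM, a log2 ratio of 7.52 (interval 5.68 to 9.68). Of the 4 Slc5a7 UMIs outside source spots, 2 lay in spots that touched the patch. The remaining 2 lay in deep spots of the Penk/Reln region, with 38564 and 18861 UMIs. Of the 8 genes of the set with at least 100 UMIs, Slc18a3 (by the rule) and Ache were at least 2-fold higher in source spots than in other spots, where 4.42% of 11003 genes were. None of the 8 was 2-fold lower, against 9.62% of all genes tested. Source spots and other spots had near the same depth, with medians of 7047.5 and 6686 UMIs.

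The patch also held transcripts of a marker of peripheral and cranial motor neurons. This marker, Prph, was singled out from the motor neuron list after its values were seen. Prph, the intermediate filament peripherin, had 55 UMIs in 14 of the 22 patch spots and 141 UMIs elsewhere, 91 of them in the telencephalon division (10.7 CPM). It reached 360 CPM in the patch against 1.68 CPM in brainstem spots outside the patch and its ring of touching spots, a log2 ratio of 7.74 (6.83 to 8.78). Over all spots elsewhere, the reference used for the other genes below, the Prph log2 ratio was 5.73 (5.26 to 6.19). The spot with 14 Slc18a3 UMIs alone held 31 Prph UMIs, and without it the patch still had 24 Prph UMIs, or 173 CPM. Tbx20, a transcription factor of cranial motor neurons, had 4 of its 5 UMIs in 3 patch spots, and Isl1 had 1 UMI there and 1 elsewhere. The motor neuron list also held Isl2, Mnx1, Phox2a and Calca, none of which had a UMI in the patch and all of which had 8 or fewer elsewhere. Nos1, nitric oxide synthase, which tegmental cholinergic neurons are known to express, had 5 UMIs in the patch against 3571 elsewhere, a log2 ratio of -2.39 (-4.01 to -1.16), and Gata2 of the same list had 3 against 342 (0.26, -2.03 to 1.82). None of Lhx8, Gbx1 and Ngfr, markers of basal forebrain cholinergic neurons, had a UMI in the patch, and they had between 1 and 5 elsewhere. Vip, found in cortical interneurons that make Chat, was near even, at 8 UMIs in the patch and 1100 elsewhere (log2 ratio -0.01, -1.23 to 0.97), as was Calb2 of the same list at 40 and 4442 UMIs (0.30, -0.19 to 0.75).

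Outside these lists, among genes with at least 20 UMIs in the patch, those with the highest ratio over other brainstem spots (10 CPM added to both levels) were, after Prph, Cartpt, Arhgap36, Sncg, Nefm, Kcng4, Ecel1 and Ret; they were picked after their values were seen. Nefm, the medium neurofilament, had 7168 CPM in the patch against 1177 CPM in other brainstem spots (log2 ratio 2.61, 2.51 to 2.70) and was found in all 22 patch spots. Ret, a receptor for neurotrophic factors of the GDNF family, had 26 UMIs in 13 patch spots, 170 CPM against 26.7 CPM (log2 ratio 2.67). The ring of 21 spots that touched the patch held no Chat or Slc18a3 by definition. It was led by Cartpt, Ucn, Tph2, Gchfr and Slc18a2. Cartpt and Sncg were among the leading genes of both places. Tph2, of the list of serotonin neuron markers, had 193 UMIs in 9 ring spots. Its level was 1547 CPM in the ring, 517 CPM in the patch and 177 CPM in other brainstem spots. Cartpt, a neuropeptide precursor, had 1008 UMIs in 11 ring spots, 8080 CPM, against 1774 CPM in the patch, 100 CPM in other brainstem spots and 32.1 CPM in the telencephalon division. The highest ring spot held 472 of these UMIs. Ucn, the peptide urocortin, had 23 UMIs in 5 ring spots and 12 UMIs in 7 patch spots, against 9 UMIs in the 1148 other brainstem spots. As background, both peptides are known from neurons of the Edinger-Westphal nucleus, a neighbour of the oculomotor nucleus in the midbrain; the labels name no nucleus and none is assigned here.

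The patch was chosen by Chat and Slc18a3, so their fall with distance from it is a description only. Prph was singled out after its values in the patch were seen, so its fall is a description too. Slc5a7, Ache and the receptors had no part in that choice of the patch. Brainstem spots were binned by distance from the Slc18a3-weighted centre of the patch, in spot widths (the distance between neighbouring spots). Slc18a3 was 550 CPM within 3 widths (29 spots), 18.5 CPM from 3 to 6 widths (62 spots), listed at 0 UMIs from 6 to 10 widths (136 spots), and 0.320 CPM beyond (964 spots). Chat was 75.0, 6.18 and 1.55 CPM in the first 3 bins and had 0 UMIs beyond 10 widths. All 11 brainstem Slc5a7 UMIs lay within 3 widths. Prph was 290, 18.5, 1.55 and 1.44 CPM in the 4 bins. Ache was 325 CPM (251 to 414), 269 CPM (215 to 331), 219 CPM (185 to 259) and 201 CPM (190 to 212), so it changed by less than 2-fold over the same range. Chrna4, the nicotinic alpha-4 subunit, ran from 155 CPM (105 to 220) in the nearest bin to 114 CPM (106 to 123) in the farthest, with intervals that overlap. Chrm2 was 25.0 CPM (8.12 to 58.4), 6.18 CPM (2 UMIs), 23.2 CPM and 27.2 CPM in the 4 bins. Nos1 was lowest near the patch, at 35.0, 89.6, 136 and 213 CPM.

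**Figure D2:**
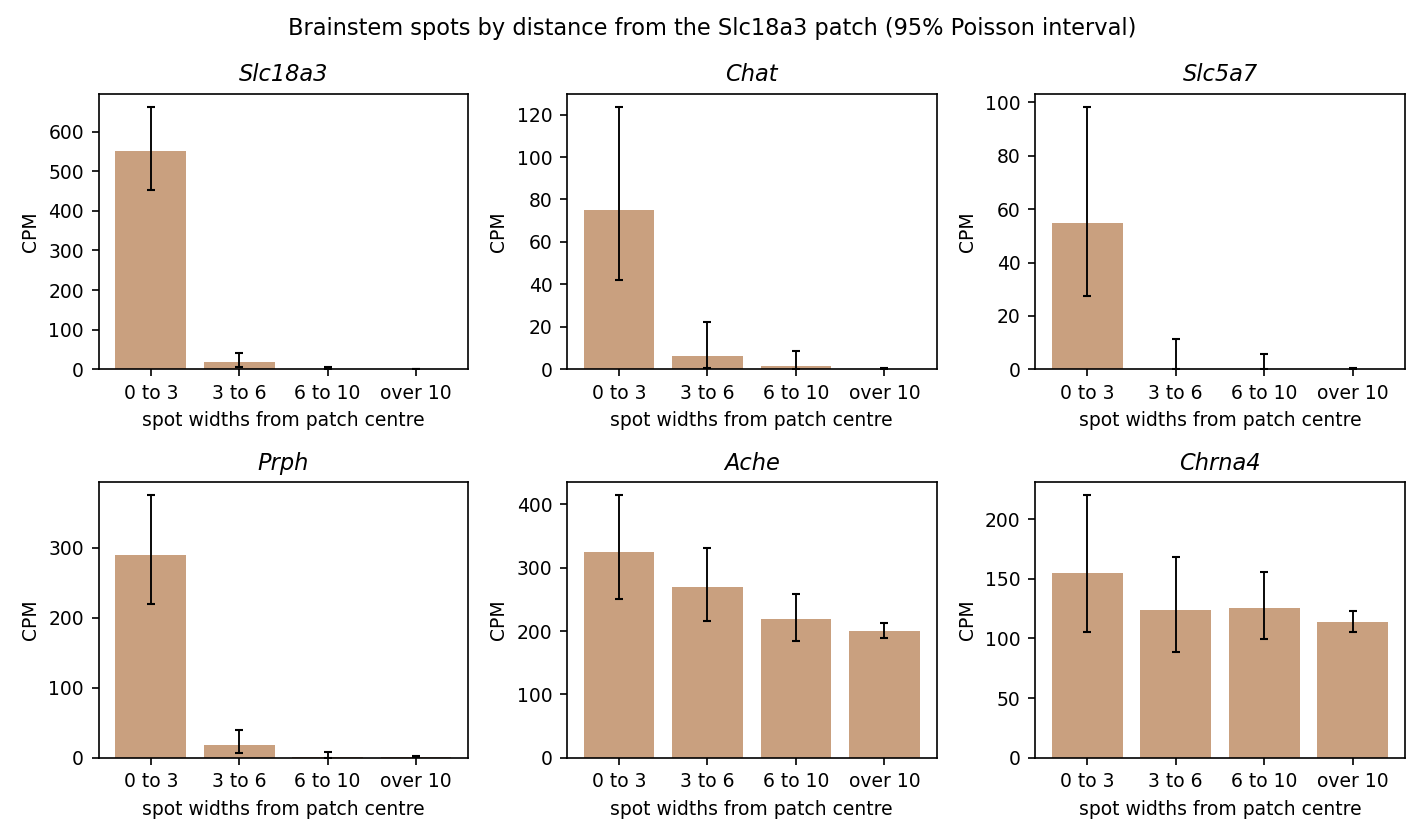
Levels in CPM of 6 genes in brainstem spots, in 4 bins of distance from the centre of the patch (spot widths), as bars with 95% Poisson intervals. Slc18a3, Chat, Slc5a7 and Prph were highest in the nearest bin, while Ache was 325 CPM there and 201 CPM in the farthest.

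Ache was the gene of the set with most UMIs, 2375 in 1285 spots, with at most 10 in a spot. It had 1549 UMIs in the brainstem division and 508 in the telencephalon division, or 209 CPM against 60.0 CPM, a log2 ratio of 1.80 (1.65 to 1.94), or 0.80 when counted as UMIs per spot. Apart from Mgp/Igf2 and Ttr/Myoc, the 4 brainstem regions stood together at the top, at 252 CPM in Tph2/Slc18a2 (224 to 284), 242 in Six3/Slc18a3 (221 to 265), 222 in Cartpt/Baiap3 (196 to 251) and 219 in Irx2/Cdh23 (199 to 239). These neighbours did not differ beyond counting error. Next came Ttr/Myoc at 118 CPM (86.7 to 156), and the step from Irx2/Cdh23 down to it was the only one of 14 steps between neighbours in the order whose interval lay above 0 (log2 0.89, 0.46 to 1.35). The cortical regions followed with 105 CPM in Ccn2/Cplx3, 91.3 in Dkk3/Tshz2 and 76.3 in Myl4/Col6a1, then 44.5 in Clec18a/Igfn1, and the lowest level was 16.9 CPM (30 UMIs) in C1ql2/Pcdh20, 14.9-fold under the highest. Mgp/Igf2, with 28.5 CPM, was the lowest of the brainstem regions.

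High Ache was not confined to source spots. Source spots had 66 Ache UMIs and other spots 2309, or 260 CPM against 111 CPM (log2 ratio 1.23, 0.85 to 1.58). The ring around the patch, without Chat or Slc18a3, had 42 Ache UMIs, 337 CPM (243 to 455), and the patch itself 46 UMIs, 301 CPM (220 to 402), with intervals that overlap. Brainstem spots away from both had 204 CPM (194 to 215). Since fewer cells of a type and less RNA per cell give the same sum in a spot, the data do not separate them, here or in any result below.

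The share of spots with Ache also differed at equal depth. When each spot was thinned to 2000 UMIs, 33.6% (30.9 to 36.4) of 1168 brainstem spots and 12.6% (10.1 to 15.3) of 669 telencephalon spots held a UMI of Ache, leaving out 23 and 12 shallower spots. Unthinned, the shares were 63.5% and 48.0%, in divisions with median depths of 5357 and 10556 UMIs. For Slc18a3 the thinned shares were 1.11% in the brainstem division and 0 of 669 spots in the telencephalon division, where 3 spots would be 0.448% and the upper limit of the exact interval is 0.550%. In the unthinned data Slc18a3 had 4 UMIs in 4 telencephalon spots, 0.587% of them, against 2.10% of brainstem spots.

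Across the 2 divisions, the set split by gene. Of the 8 genes with at least 100 UMIs, 3 were at least 2-fold higher in the brainstem division than in the telencephalon division (Slc18a3, Chrm2 and Ache), where 10.3% of 10513 genes tested were, and 1 was at least 2-fold lower (Chrm1), where 6.91% were. Slc18a3, Chrm2 and Chrm1 reached 100 UMIs only through the division where they were high (118 against 4, 192 against 42 and 206 against 7). Their calls are thus a description only. Among the called genes, only Ache reached that minimum in both divisions. The median log2 ratio of the 8 was 0.60, beside 0.06 for all genes tested. Slc18a3 had 118 UMIs in the brainstem division and 4 in the telencephalon division, 15.9 CPM against 0.472 CPM (log2 ratio 5.07, 3.68 to 6.97). The patch alone held 111 of these brainstem UMIs. Chat had 18 UMIs in brainstem spots and 0 in telencephalon spots, at least 6.84-fold higher against the 3 counts that a count of 0 allows over that division. Slc5a7, with 11 and 0 UMIs, was at least 4.18-fold higher on the same basis. The oligodendrocyte and white matter list moved the same way: all 8 of its markers were at least 2-fold higher in the brainstem division, its summed level was 4878 to 19217 CPM in brainstem regions and 484 to 11415 CPM in telencephalon regions, and none of its markers was at 0. Of the meninges markers 5 of 6 tested were also at least 2-fold higher there (median log2 ratio 2.70), as were 5 of 6 vessel markers, 3 of 5 astrocyte markers and 0 of 5 microglia markers. The part of these lists in the ratios was not tested.

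**Figure D3:**
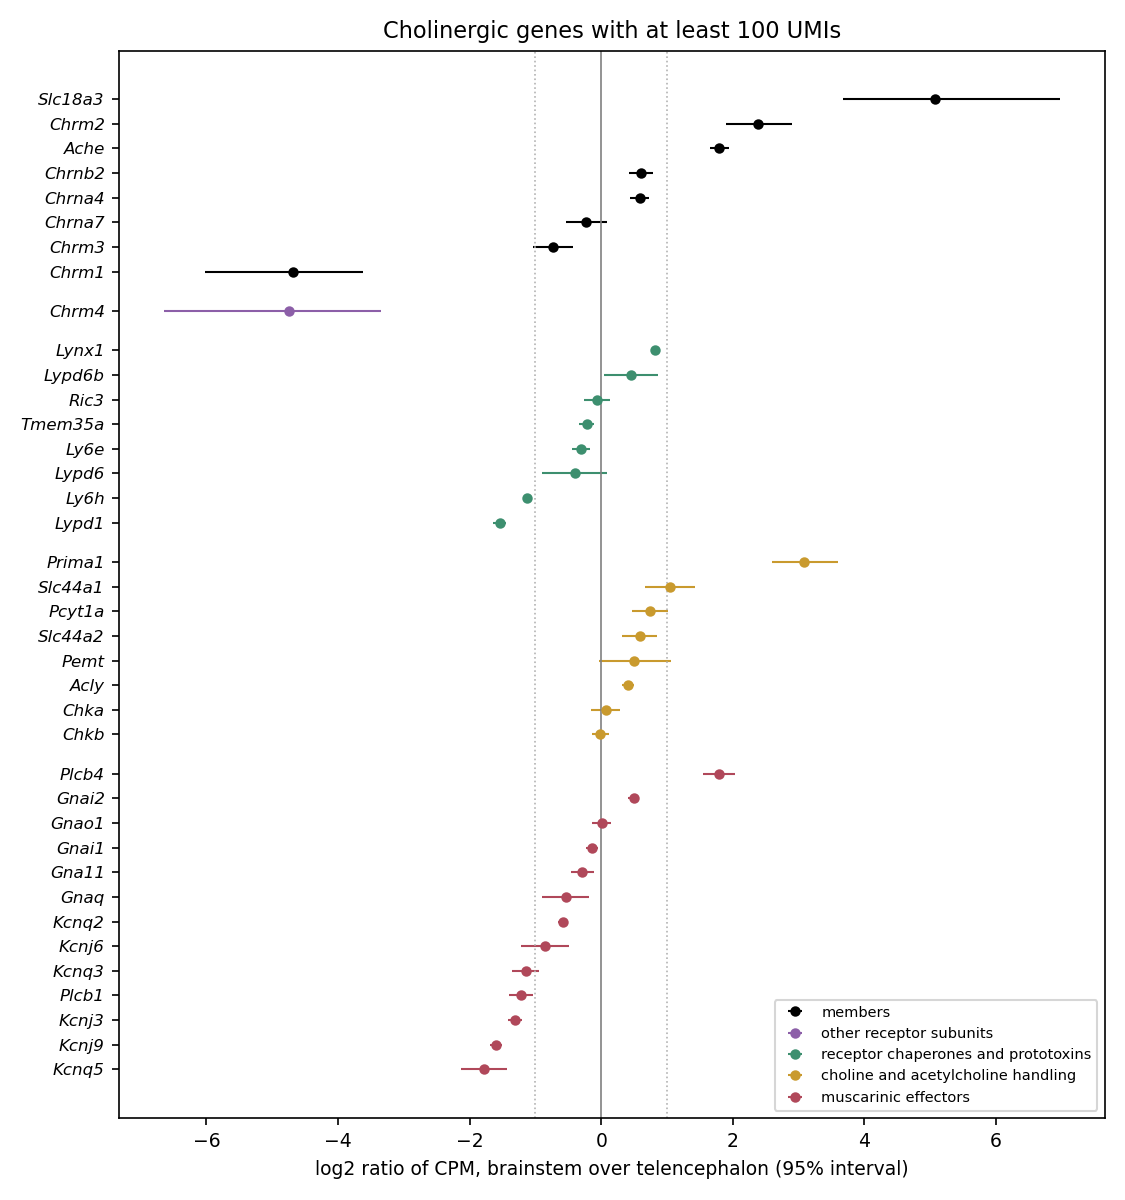
Log2 ratio of CPM, brainstem over telencephalon division, with 95% intervals, for the 8 genes of the set (black, top) and the other cholinergic genes with at least 100 UMIs, by list; dotted lines mark 2-fold. Slc18a3, Chrm2 and Ache lie to the right of the lines and Chrm1 and Chrm4 far to the left.

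The nicotinic subunits differed less between the divisions than among the regions of the telencephalon division. Chrna4 had 865 UMIs in the brainstem division and 658 in the telencephalon division, 116 CPM against 77.7 CPM (log2 ratio 0.58, 0.44 to 0.73). Chrnb2, the beta-2 subunit that pairs with Chrna4 in the main high-affinity receptor of the brain, had 579 and 433 UMIs, 78.0 CPM against 51.1 CPM (0.61, 0.43 to 0.79). Both signs rest on scaling by total UMIs: counted per spot, Chrna4 was at -0.41 and Chrnb2 at -0.39, since telencephalon spots were deeper. Without the C1ql2/Pcdh20 region in the telencephalon division the Chrna4 ratio was 0.29. Chrna7, the subunit of a receptor made of 1 kind of subunit, had 148 and 197 UMIs, 19.9 CPM against 23.3 CPM (-0.22, -0.54 to 0.09), so its difference was within counting error. The parts of the section differed here, with a Chrna7 ratio of -1.20 in lower array columns and 0.71 in higher ones.

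By region, Chrna4 ranged from 170 CPM in Ccn2/Cplx3 (147 to 196) to 11.3 CPM in C1ql2/Pcdh20, a 15.1-fold range. Below Ccn2/Cplx3 came Six3/Slc18a3 at 142, Irx2/Cdh23 and Cartpt/Baiap3 at 128 each, Dkk3/Tshz2 at 127, Myl4/Col6a1 at 117 and Tph2/Slc18a2 at 111 CPM, none of which differed from its neighbour in the order beyond counting error. The levels then stepped down to 68.6 CPM in Ttr/Myoc (log2 step 0.70, 0.10 to 1.35), with 55.7 in Gpr161/Cpne7, 40.0 in Penk/Reln and 31.5 in Clec18a/Igfn1. Chrnb2 had a flatter order, from 101 CPM in Cartpt/Baiap3 to 12.7 CPM in Mgp/Igf2, and none of its 14 neighbouring pairs differed beyond counting error. Chrna7 followed neither: it stood at 38.9 CPM in Ccn2/Cplx3, 38.0 in Gpr161/Cpne7, 37.7 in C1ql2/Pcdh20 and 37.4 in Cartpt/Baiap3, and at only 6.96 CPM in Irx2/Cdh23 and 3.21 CPM (1 UMI) in Gfap/Myoc.

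**Figure D4:**
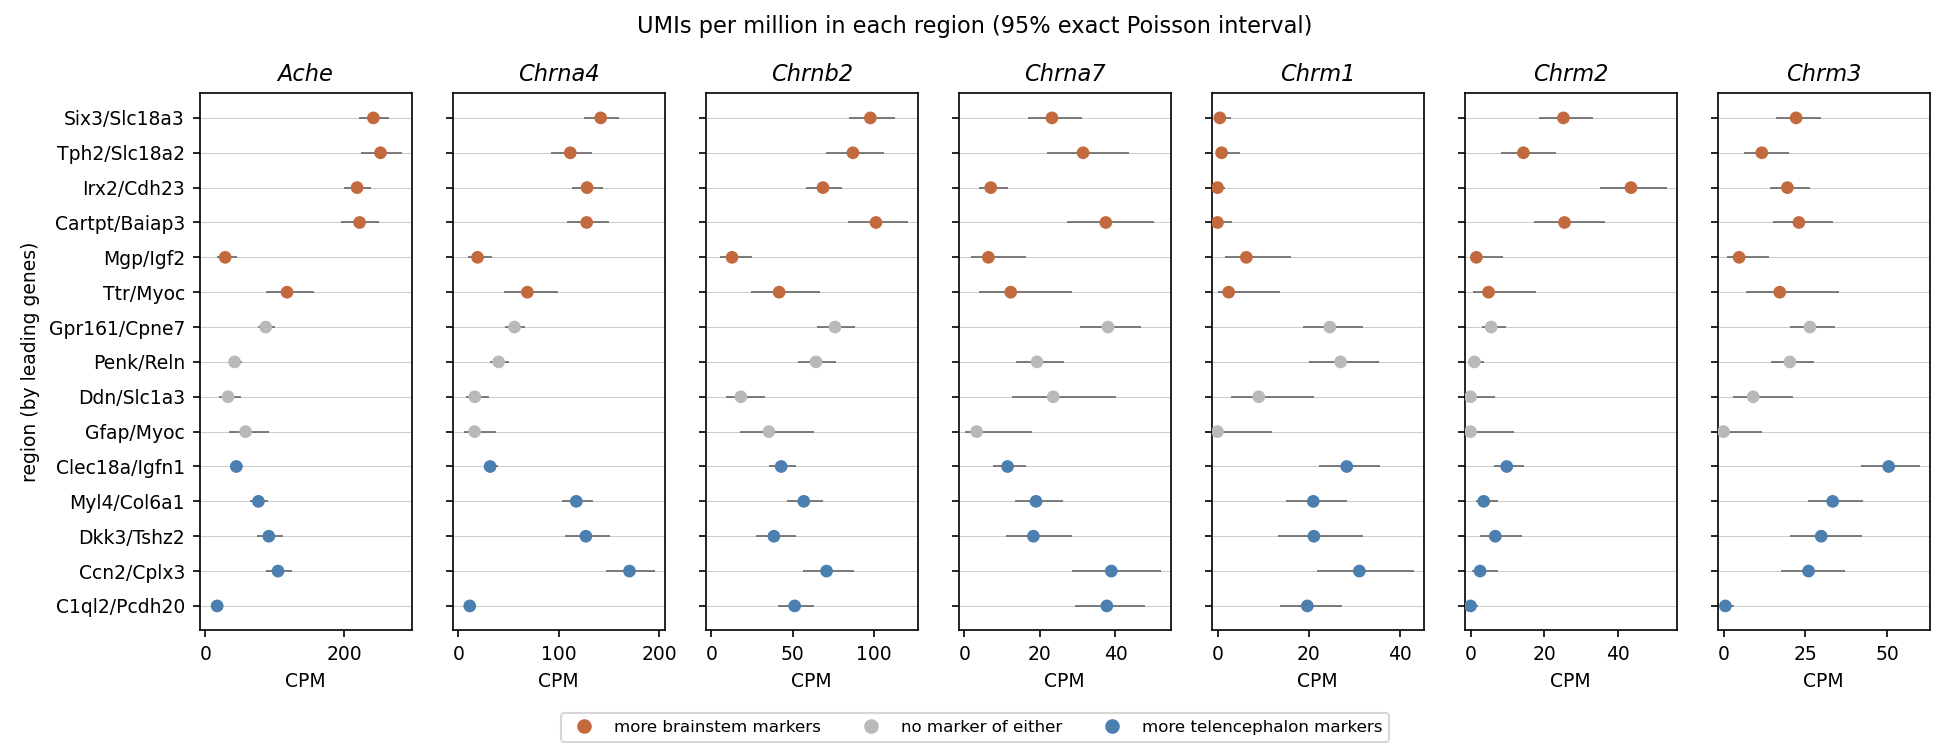
CPM of Ache and the 6 receptor genes in each of the 15 regions, with 95% Poisson intervals, coloured by division and listed with the brainstem regions at the top. Ache is at 219 to 252 CPM in 4 brainstem regions, Chrm1 is near 0 there, Chrm2 is highest in Irx2/Cdh23 and Chrm3 in Clec18a/Igfn1.

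Set against all other spots, the 8 genes in 15 regions gave 120 pairs, of which 57 (47.5%) were at least 2-fold apart, beside 15.8% of such pairs over all genes tested. Of the 57, 12 were higher and 45 lower in the region, and the count includes Slc18a3 in the region named for it. That region held 108 of the 123 Slc18a3 UMIs. Pairs in which Slc18a3 was lower in another region therefore restate the same fact and are no separate results. The regions that follow were singled out after their values were seen. In the cortex, Chrna4 was low in the Clec18a/Igfn1 region, which held 5 of 6 upper cortex markers, and high in the Ccn2/Cplx3 region, which held 4 of 10 deep cortex markers and 4 of 11 Ammon's horn markers. It had 197 UMIs in Ccn2/Cplx3 and 80 in Clec18a/Igfn1, 170 CPM against 31.5 CPM (log2 ratio 2.43, 2.05 to 2.83). Chrna7 followed at 38.9 CPM against 11.4 CPM (1.77, 1.06 to 2.49, from 74 UMIs in all) and Ache at 105 CPM against 44.5 CPM (1.23, 0.85 to 1.62). Chrnb2 differed less, at 70.9 CPM against 42.9 CPM (0.72, 0.29 to 1.15). Of the muscarinic genes, Chrm3 and Chrm2 ran the other way, while Chrm1 was even at 31.1 CPM against 28.3 CPM (0.13, -0.48 to 0.73). Chrm3 had 25.9 CPM in Ccn2/Cplx3 against 50.4 CPM in Clec18a/Igfn1 (-0.96, -1.58 to -0.38), and Chrm2 had 3 UMIs against 25 (-1.92, -4.30 to -0.21). In the part of the section with higher array columns the Chrm3 ratio was -0.20 and the Ache ratio 0.68. The Myl4/Col6a1 region, also over Clec18a/Igfn1, gave 1.90 for Chrna4 (1.52 to 2.28), 0.78 for Ache, -0.60 for Chrm3 and -1.46 for Chrm2.

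The C1ql2/Pcdh20 region, which held 5 of 6 dentate gyrus markers and had the deepest spots (median 30719.5 UMIs), was set against Gpr161/Cpne7, which held 3 of 11 Ammon's horn markers (Pou3f1, Mpped1 and Cpne7), while C1ql2/Pcdh20 held 2 of them. Chrna4 had 20 UMIs in C1ql2/Pcdh20 and 129 in Gpr161/Cpne7, 11.3 CPM against 55.7 CPM (log2 ratio -2.31, -3.07 to -1.62). Ache was lower to a like degree, at 16.9 CPM against 86.9 CPM (-2.36, -2.97 to -1.80). Chrna7 was even, at 37.7 CPM against 38.0 CPM (-0.01, -0.49 to 0.46), and Chrnb2 was 51.2 CPM against 76.0 CPM (-0.57, -0.95 to -0.20). The largest gap was in Chrm3, which had 1 UMI in C1ql2/Pcdh20 and 61 in Gpr161/Cpne7 (-5.55, -10.88 to -3.02), whereas Chrm1 had 35 and 57 UMIs, 19.7 CPM against 24.6 CPM (-0.32, -0.97 to 0.31). Chrm2 had 0 and 13 UMIs, at least 3.33-fold lower against 3 counts. Counted per spot, Ache was at -0.85 and Chrna4 at -0.79.

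Chrna4 as a share of the Chrna4 and Chrnb2 UMIs shows how these 2 subunits shifted against each other. It was 59.9% (57.3 to 62.4) in the brainstem division and 60.3% (57.3 to 63.2) in the telencephalon division. Within the telencephalon division it spread from 18.0% (11.4 to 26.4) in C1ql2/Pcdh20 and 42.3% (35.2 to 49.7) in Clec18a/Igfn1 to 67.4% (62.1 to 72.3) in Myl4/Col6a1, 70.6% (64.9 to 75.9) in Ccn2/Cplx3 and 76.7% (69.7 to 82.8) in Dkk3/Tshz2. The 6 brainstem regions lay between 55.8% and 65.1%. Each probe set catches its gene with its own efficiency, so the share compares regions and not the amounts of the subunits.

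**Figure D5:**
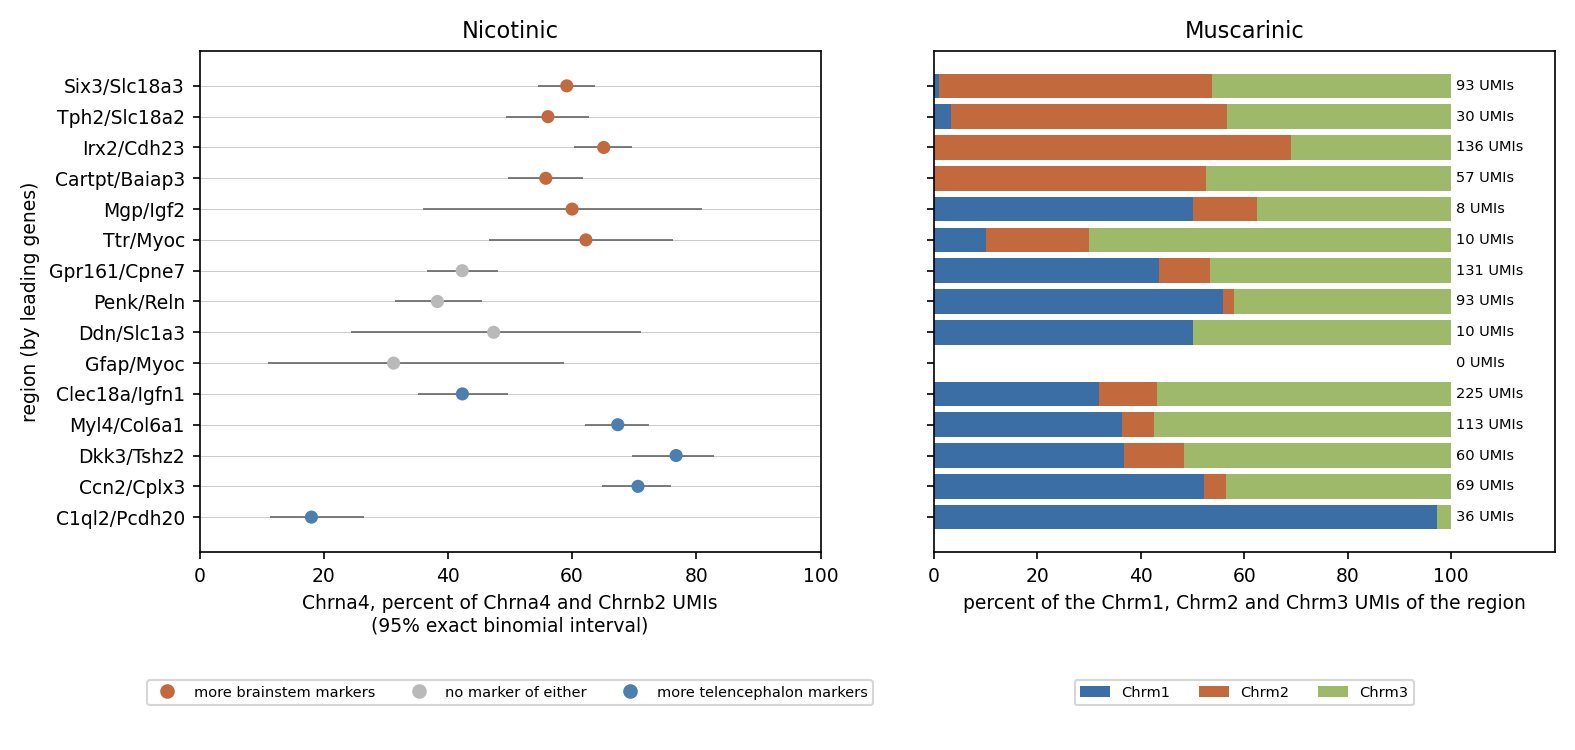
Left, Chrna4 as percent of the Chrna4 and Chrnb2 UMIs of each region with 95% binomial intervals, coloured by division. Right, the split of the Chrm1, Chrm2 and Chrm3 UMIs of each region, with their number at the right; C1ql2/Pcdh20 has 18.0% Chrna4 and 97.2% Chrm1, and the brainstem regions have most of the Chrm2.

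Among the 6 receptor genes of the set, Chrm1 and Chrm2 differed most between the divisions, in opposite directions. Chrm1, which couples to Gq and is a main muscarinic receptor of cortex and hippocampus, had 7 UMIs in the brainstem division and 206 in the telencephalon division, 0.943 CPM against 24.3 CPM (log2 ratio -4.69, -6.02 to -3.62). It was -6.28 without Mgp/Igf2 and Ttr/Myoc and -3.34 over all barcodes. Of those 7 UMIs, 4 lay in the Mgp/Igf2 region and 1 each in Six3/Slc18a3, Tph2/Slc18a2 and Ttr/Myoc. Chrm1 had 0 UMIs in Irx2/Cdh23, Cartpt/Baiap3 and Gfap/Myoc, where 3 counts would be 1.39, 2.55 and 9.64 CPM. Its highest levels were 31.1 CPM in Ccn2/Cplx3 (21.8 to 43.1), 28.3 in Clec18a/Igfn1 and 27.0 in Penk/Reln, and no neighbouring pair in its order differed beyond counting error.

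Chrm2, which couples to Gi and serves as an autoreceptor on many cholinergic neurons, ran the opposite way, with 192 UMIs in the brainstem division and 42 in the telencephalon division, 25.9 CPM against 4.96 CPM (log2 ratio 2.38, 1.89 to 2.90). The ratio was 5.33 in the part of the section with lower array columns and 1.47 in the part with higher ones. Irx2/Cdh23 led with 94 UMIs, 43.6 CPM (35.2 to 53.4), ahead of Cartpt/Baiap3 at 25.5 CPM (log2 step 0.77, 0.17 to 1.42), Six3/Slc18a3 at 25.2 and Tph2/Slc18a2 at 14.4. Irx2/Cdh23 over the other brainstem regions gave 43.6 CPM against 18.6 CPM for Chrm2 (1.23, 0.81 to 1.65), 6.96 CPM against 25.2 CPM for Chrna7 (-1.86, -2.74 to -1.08) and an even 219 CPM against 205 CPM for Ache (0.10, -0.06 to 0.25). Per spot, Chrm2 was at 2.22 and Chrna7 at -0.87. The other brainstem regions include Mgp/Igf2 and Ttr/Myoc, with 1 and 2 Chrm2 UMIs, and ratios without them were not computed here. The telencephalon region with most Chrm2 was Clec18a/Igfn1 at 9.84 CPM. The region of highest Chrm2 was not the region of the release genes: Irx2/Cdh23 had 2 Slc18a3 UMIs and no Chat. Source spots had 2 Chrm2 UMIs, both among spots with Slc18a3, or 7.89 CPM against 11.9 CPM in other spots. That difference was within counting error (log2 ratio -0.59, -3.65 to 1.27). The ring around the patch had 4 Chrm2 UMIs, also within counting error of all other spots (1.44, -0.44 to 2.82). Chrnb2 was higher in the ring, at 160 CPM against 62.7 CPM (1.35, 0.64 to 1.99, from 20 ring UMIs). Chrna4 was higher in source spots, at 150 CPM against 82.2 CPM (0.87, 0.36 to 1.33). Intervals of the remaining receptor ratios in both places held 0.

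Chrm3, which like Chrm1 couples to Gq, was present in both divisions, with 135 UMIs in the brainstem division and 255 in the telencephalon division, 18.2 CPM against 30.1 CPM (log2 ratio -0.73, -1.04 to -0.42). This sign depended on the part of the section: in lower array columns the ratio was 0.98. Without C1ql2/Pcdh20 in the telencephalon division it was -1.06. Clec18a/Igfn1 led with 50.4 CPM (42.0 to 59.9) and differed from the next region, Myl4/Col6a1 at 33.3 CPM (log2 step 0.60, 0.16 to 1.05). C1ql2/Pcdh20 was at the other end with 0.563 CPM from 1 UMI, and Gfap/Myoc had none, where 3 counts would be 9.64 CPM.

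The split of the 3 muscarinic genes was therefore unlike in the divisions. In the brainstem division 2.10% of their 334 UMIs were Chrm1 (0.847 to 4.27), 57.5% Chrm2 (52.0 to 62.9) and 40.4% Chrm3. In the telencephalon division 41.0% of 503 UMIs were Chrm1 (36.6 to 45.4), 8.35% Chrm2 (6.08 to 11.1) and 50.7% Chrm3. C1ql2/Pcdh20 was nearly all Chrm1, with 35 of 36 UMIs (97.2%, 85.5 to 99.9), and Irx2/Cdh23 mostly Chrm2, with 69.1% of 136 UMIs (60.6 to 76.8).

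Other receptor genes were mostly near the limit of detection: only Chrm4 of 15 had at least 100 UMIs over both divisions. Chrm4, a Gi-coupled muscarinic receptor, had 4 UMIs in the brainstem division and 122 in the telencephalon division (log2 ratio -4.74, -6.64 to -3.35), as far apart as Chrm1. Some nicotinic subunits, named here after their values were seen, had more UMIs in the brainstem division. These were Chrna3 with 42 UMIs against 2, Chrna6 with 31 against 5 and Chrna2 with 18 against 3. Chrnb3, with 11 UMIs against 4 (1.65, -0.11 to 3.75), and Chrnb4, with 1 against 0, did not differ beyond counting error. Nor did Chrna5, an accessory subunit, with 13 UMIs against 20 (-0.43, -1.56 to 0.65).

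Of the 8 tested genes for choline and acetylcholine handling, 2 were at least 2-fold higher in the brainstem division and none 2-fold lower, beside 10.3% and 6.91% of all genes, with a median log2 ratio of 0.54. So few genes cannot be set apart from those shares. Prima1, the anchor that fixes acetylcholinesterase in neuronal membranes, had 296 UMIs in the brainstem division and 40 in the telencephalon division, 39.9 CPM against 4.72 CPM (3.08, 2.60 to 3.59), so it differed more than Ache itself. Slc44a1, a choline transporter-like protein, had 22.2 CPM against 10.7 CPM (1.05, 0.67 to 1.43). Pcyt1a, of phosphatidylcholine synthesis, was at 0.74. At the other end were Acly at 0.41, choline kinase alpha (Chka) at 0.07 and beta (Chkb) at -0.01. Under 100 UMIs, and named after their values were seen, were butyrylcholinesterase (Bche) with 36 UMIs against 4 and Colq, the collagen tail of synaptic acetylcholinesterase, with 34 against 5.

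Receptor chaperones and prototoxins, which help nicotinic receptors to assemble or tune them at the membrane, numbered 8: none was 2-fold higher in the brainstem division and 2 were 2-fold lower, beside 10.3% and 6.91% of all genes, and the median was -0.27. Lypd1 had 148 CPM in the brainstem division and 430 CPM in the telencephalon division (-1.54, -1.64 to -1.44), and Ly6h 582 and 1265 CPM (-1.12, -1.17 to -1.07). Lynx1, a prototoxin that binds nicotinic receptors, had the highest ratio, at 938 CPM against 532 CPM (0.82, 0.76 to 0.87). Lypd6b was at 0.45, the chaperone Ric3 at -0.06 and Lypd6 at -0.40.

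Among 13 muscarinic effectors, 1 was at least 2-fold higher in the brainstem division and 5 were 2-fold lower, beside 10.3% and 6.91% of all genes, with a median of -0.58. Plcb4, a phospholipase C that Gq proteins switch on, had 76.6 CPM against 22.2 CPM (1.79, 1.55 to 2.03), whereas its relative Plcb1 had 46.2 CPM against 108 CPM (-1.22, -1.40 to -1.04). The potassium channel subunits that muscarinic receptors close or open were lower: Kcnq5 at -1.77 (-2.13 to -1.43) and Kcnq3 at -1.14 of the M current, and Kcnj9 at -1.60 and Kcnj3 at -1.30 of the G protein-gated channels. Plcb1 and Kcnq3 were added to complete the 5. The G protein genes Gnao1 and Gnai2 were at 0.01 and 0.49.

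For the genes of the set with at least 500 UMIs, the genes with the most similar pattern across the 15 regions were ranked by Pearson's r of log2(CPM + 10) over 6878 genes. Ache was most like Peg3, an imprinted zinc finger gene (r = 0.95), Ttbk2, a kinase of tau and tubulin (0.95), and Nap1l5 (0.94). Chrna4 was most like Pfkp, the platelet-type phosphofructokinase (0.92), Chga, chromogranin A (0.92), and Cdkn2d (0.90). Chrnb2 was most like Oprl1, the nociceptin receptor (0.95), Necap1, a clathrin adaptor partner (0.92), and Faim2 (0.92). The regions come from 1 library and share its depth and tissue, and these r describe likeness only.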

How the data were processed

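Per the labels' protocols, probe-based Visium CytAssist libraries were made from 1 brain section of each genotype. The deposited matrices hold raw UMI counts per gene and spot, made with Space Ranger 3.1.1 per the file headers and the mm10 build per the submitters' processing notes; the probe set and settings are not stated there. Both samples hold the same matrix, used once. Spots were clustered with scanpy 1.11.5 (10000 UMIs per spot, log scale, 2000 variable genes without any cholinergic gene, 30 principal components, 15 neighbours, Leiden resolution 1). Counts were summed per region and scaled to CPM (UMIs per 1000000). A gene counts as tested with at least 100 UMIs over the groups compared, and as called at 2-fold or more. With 1 section there was no replicate and no test. Ratios have exact conditional intervals, checked only on simulated Poisson counts. The intervals assume that same model, so the check does not cover UMIs that clump in a few spots. The members and all lists were chosen with earlier results of these data known.

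Named beside the 10 members were other cholinergic genes by a rule (at least 100 UMIs, the 3 highest and 3 lowest of a list), the 3 most similar genes, marker lists, and genes said to be picked after their values were seen. Alternatives changed clustering, spots, section part, scaling (edgeR 4.0.16 for TMM factors), count minimum, thinning and the source rule. Promoters came from RefSeq, for 9 of the 10 members (all but Chrm1).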

Additional observations from a re-analysis of the deposited data

Results flagged for a closer look

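The 237 barcodes that were not used (outside the tissue of the wild-type position list, or under 500 UMIs) held 697716 UMIs, and 120 of them were marked as tissue in the G2-3 position list. In these barcodes 7 of the 10 genes had more than the 3 UMIs that a count of 0 allows: Ache 60, Chrna4 36, Chrnb2 33, Chrna7 18, Chrm3 14, Slc18a3 5 and Chrm1 4. Ache was 86.0 CPM there and 113 CPM in the spots used, Chrna7 25.8 and 23.1 CPM, and Slc18a3 7.17 and 5.86 CPM. There are no control spots in the files to set these values against, and their source was not tested.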

How the results depend on the processing

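Over 23 alternative settings, 4 of them chosen after seeing the data, 21 results were recomputed 251 times: 212 stayed within the counting interval (counts within 1.5 times), 36 moved further and 3 changed sign. The sign changes were Chrm3 at 0.98 in lower array columns and, counted as UMIs per spot, Chrna4 at -0.41 and Chrnb2 at -0.39, all brainstem over telencephalon. The last 2 follow from leaving out depth, which was greater per telencephalon spot; for Chrm3 the cause was not tested. The members at least 2-fold apart numbered 3 to 5 over 16 settings, and the Slc5a7 ratio of source spots lay between 6.83 and 8.62 over 10. The brainstem over telencephalon ratio of Slc18a3 was recomputed in only 14 settings, against 16 for Ache. No Slc18a3 ratio was given without the source spots, where none of its UMIs remained. The same held in higher array columns, where the brainstem division had no Slc18a3 UMI. The difference in thinned shares of spots with Ache, 21.1 percentage points, was 15.4 with all barcodes, 32.4 when thinned to 4000 UMIs and 15.5 unthinned. Source spots numbered 34, but 19 with at least 2 UMIs of Chat and Slc18a3 together, 10 with a UMI of both, and 4 in higher array columns; pairs of member and region 2-fold apart numbered 24 there, against 57. TMM factors shifted the brainstem over telencephalon ratios of all genes by -0.12, with no sign turned among the 8 members tested. Genes with few UMIs (Chat, Slc5a7, Chrm1 in brainstem) have wide intervals, and a count of 0 does not show absence. No paired analysis was possible because both samples hold 1 and the same matrix, and leaving out a replicate was not possible for the same reason.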
